A study of Mus musculus with 16 samples.

Results

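The mitochondrial ribosomal protein genes were followed as one family in lineage-negative mouse bone marrow profiled by droplet single-cell RNA-seq. The family comprised every gene whose symbol begins with Mrpl or Mrps followed by a digit, apart from symbols that carry the pseudogene ending -ps. This gave 77 genes of the 27998 in the tables, 48 with an Mrpl symbol, the prefix of the large subunit, and 29 with an Mrps symbol, that of the small subunit, spread over 17 chromosomes. The split is by symbol only and need not match the subunit of every protein. The 2 Mrps genes *Mrps18a* and *Mrps36* are described below as lying outside the small subunit, and this need not be a full list. Within the family the members were chosen by symbol alone, but the family as a whole was selected on its summed UMIs with IL1β against vehicle in these same mice, so every IL1β comparison below is a description and carries no test of the family. The study asked how long exposure to IL1β, a pro-inflammatory cytokine, acts on hematopoietic cells with and without TET2. Its 16 C57BL/6 mice formed 4 groups of 4, in which each genotype, WT or *Tet2*-KO, received either the cytokine or its vehicle. WT mice were *Tet2* fl/fl without Cre, and *Tet2*-KO mice were Vav-Cre *Tet2*-/-, in which Cre is active throughout hematopoiesis, so that loss of *Tet2* and presence of the transgene cannot be told apart. Mice were 6 to 12 weeks old by the labels, IL1β was given at 500 ng per mouse per day, and both treatments lasted 5 weeks.

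Mitochondria hold their own ribosomes, which translate the few respiratory chain subunits still encoded in mitochondrial DNA. The ribosomal RNAs of these mitoribosomes come from mitochondrial DNA, but every protein of their large and small subunits is encoded in the nucleus, made in the cytosol and imported, so that synthesis of the respiratory chain needs both genomes to be expressed together. In bone marrow, quiescent stem cells are known to rely little on respiration, whereas dividing erythroid and myeloid progenitors build up mitochondrial mass and translation.

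Each of 8 libraries held 2 mice of one group, which were told apart by antibody hashtags. Of 94917 barcodes that passed quality filters, 57896 were assigned to a single mouse, with 698 to 6432 cells and 4388604 to 44152768 UMIs (unique transcript molecules) per mouse. At most 57 barcodes were shared between any pair of libraries. Both mice of a group's library went through the same capture, so the spread between mice is partly a spread within libraries, and values by library are given beside the results. *Tet2* itself lay at 30.5 to 46.4 CPM (UMIs per 1000000 UMIs) in WT with vehicle and at 36.3 to 45.8 CPM in *Tet2*-KO with vehicle, and at 53.4 to 61.6 CPM and 58.4 to 77.7 CPM in the same genotypes with IL1β, but tags from the 3′ end need not fall in a deleted exon and check no genotype. Cells were assigned to marker-gated types named for the markers they express, and 5 gates were tested, the HSC-like, immature myeloid progenitor-like (*Mpo*, *Cd34*), granulocyte progenitor-like (*Elane*, *Ms4a3*), monocyte-like and megakaryocyte-erythroid progenitor-like (*Gata1*, *Gata2*) gates. The markers of a gate took more of its UMIs than of any other tested gate's in 4 of the 5, for example 0.173% against at most 0.0382% for the HSC-like markers. Cells were placed by these same markers, so high levels in their own gate follow from the gating and do not check cell identity. The immature myeloid progenitor markers were the exception, at 1.25% in their own gate and 1.48% in the granulocyte progenitor-like gate, so these gates are not cleanly separate.

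The promoter letters are shown for 6 members picked by their values in the IL1β comparisons. *Mrpl42*, *Mrpl17* and *Mrps24* were, with *Mrps16*, the members called lower in the most IL1β comparisons, *Mrps18b* and *Mrpl12* had some of the steepest falls, and *Mrps9* alone was called higher with TMM scaling. Each line gives the 250 bases before the RefSeq transcription start in GRCm38.p6, 5′ to 3′ on the gene's own strand, with matches to the searched motifs in capitals. They lie at chr11:120484387-120484636 (plus strand) for *Mrpl12*, chr7:105811088-105811337 (minus strand) for *Mrpl17*, chr10:95501950-95502199 (minus strand) for *Mrpl42*, chr17:35916441-35916690 (minus strand) for *Mrps18b*, chr11:5707702-5707951 (minus strand) for *Mrps24* and chr1:42850983-42851232 (plus strand) for *Mrps9*.
Mrpl12: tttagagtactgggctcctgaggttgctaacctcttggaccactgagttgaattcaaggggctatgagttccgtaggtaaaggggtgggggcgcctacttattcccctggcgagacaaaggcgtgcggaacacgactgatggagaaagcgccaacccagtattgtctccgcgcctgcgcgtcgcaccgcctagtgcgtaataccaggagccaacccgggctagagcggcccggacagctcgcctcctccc
Mrpl17: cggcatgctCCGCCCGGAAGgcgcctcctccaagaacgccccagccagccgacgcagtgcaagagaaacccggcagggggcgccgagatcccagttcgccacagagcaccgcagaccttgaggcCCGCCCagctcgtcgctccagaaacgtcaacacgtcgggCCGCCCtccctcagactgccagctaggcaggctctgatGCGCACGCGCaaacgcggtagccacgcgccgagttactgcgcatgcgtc
Mrpl42: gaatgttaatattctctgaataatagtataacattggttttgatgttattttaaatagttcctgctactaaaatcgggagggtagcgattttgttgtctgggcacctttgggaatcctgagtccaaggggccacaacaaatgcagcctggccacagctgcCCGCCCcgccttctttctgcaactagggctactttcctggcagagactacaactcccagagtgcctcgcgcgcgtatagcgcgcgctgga
Mrps18b: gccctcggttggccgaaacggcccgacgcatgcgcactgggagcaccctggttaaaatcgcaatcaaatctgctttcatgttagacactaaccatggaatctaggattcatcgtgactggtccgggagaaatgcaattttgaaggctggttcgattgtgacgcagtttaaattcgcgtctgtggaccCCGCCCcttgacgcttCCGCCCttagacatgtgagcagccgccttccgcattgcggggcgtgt
Mrps24: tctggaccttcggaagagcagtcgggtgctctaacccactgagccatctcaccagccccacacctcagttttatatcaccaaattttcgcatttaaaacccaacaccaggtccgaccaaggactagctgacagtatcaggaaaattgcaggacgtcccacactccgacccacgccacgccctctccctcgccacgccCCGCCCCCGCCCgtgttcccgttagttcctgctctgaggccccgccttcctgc
Mrps9: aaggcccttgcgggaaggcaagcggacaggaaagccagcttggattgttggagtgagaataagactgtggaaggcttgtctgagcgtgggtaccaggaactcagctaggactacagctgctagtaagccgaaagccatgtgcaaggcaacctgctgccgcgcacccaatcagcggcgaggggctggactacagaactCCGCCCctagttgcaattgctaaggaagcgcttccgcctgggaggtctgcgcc

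The letters searched on both strands were 2 forms of the NRF1 consensus, one a palindrome and the other the form marked in *Mrpl17*, CCGGAAG for ETS factors, AAGATGGC for YY1, CACGTG for the E-box that MYC and other factors bind, and GGGCGG for SP1 and its relatives. Windows of 300 bases, from 250 before to 50 after the start, were available for 68 of the 77 members. ETS letters were in 25 of the 68 members (36.8%), against 22.6% of the 8106 genes tested in the granulocyte progenitor-like gate that had a window and 9.93% of all 27025 genes with a window. YY1 letters were in 12 members (17.6%, against 6.04% and 3.19%), and in all 8 members that hold them on the gene's own strand they lay within the 50 bases after the start. NRF1 letters were in 6 members (8.82%, against 6.56% and 2.56%), all of them large subunit genes. E-box letters were in 5 members (7.35%, against 12.5% and 8.09%), and SP1 letters in 34 (50.0%, against 70.1% and 38.2%). Any of the 5 motifs was in 77.9% of members and 81.3% of the tested genes. The letters are not particular to the family. ETS letters were in 40.0% of cytosolic ribosomal protein genes and 22.2% of nuclear respiratory chain genes with a window. The same 2 sets held YY1 letters in 9.23% and 14.3% and NRF1 letters in 4.62% and 14.3%. In the bases shown, the promoter of *Mrpl17* holds SP1, ETS and NRF1 letters, those of *Mrpl42*, *Mrps18b*, *Mrps24* and *Mrps9* hold SP1 letters only, and that of *Mrpl12* holds none of the searched letters. In the whole windows, *Mrpl42* and *Mrps24* also hold YY1 letters and *Mrps18b* ETS letters, while *Mrps9* and *Mrpl12* hold no further ones. 

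With IL1β, mitochondrial ribosomal protein transcripts took a smaller share of the UMIs in every tested gate of both genotypes. In HSC-like cells of WT mice the family took 0.674%, 0.698%, 0.644% and 0.651% of UMIs with vehicle and 0.617%, 0.554%, 0.551% and 0.615% with IL1β. No WT mouse given IL1β reached the lowest vehicle mouse, and the mean was 12.4% lower. In HSC-like cells of *Tet2*-KO mice the share was 0.635%, 0.687%, 0.628% and 0.678% with vehicle and 0.463%, 0.498%, 0.493% and 0.507% with IL1β. Those groups lay further apart, with a mean 25.4% lower, from 0.657 ± 0.0300% to 0.490 ± 0.0191% (SD, n = 4). These are shares of what a gate's cells expressed, so a lower share can come from fewer family transcripts or from more of other transcripts, which cannot be told apart here.

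Granulocyte progenitor-like cells held the highest family share of the tested gates. In WT mice it was 0.923%, 0.839%, 0.866% and 0.871% with vehicle and 0.784%, 0.752%, 0.661% and 0.703% with IL1β. In *Tet2*-KO mice it was 0.846%, 0.880%, 0.893% and 0.919% with vehicle and 0.661%, 0.637%, 0.735% and 0.734% with IL1β. The treatment groups did not overlap in either genotype, and the means were 17.2% lower in WT and 21.8% lower in *Tet2*-KO. The fall in the mean was 15.5% in WT and 20.0% in *Tet2*-KO in immature myeloid progenitor-like cells, 13.2% and 15.6% in monocyte-like cells, and 14.6% and 19.4% in megakaryocyte-erythroid progenitor-like cells, with no overlap of the 4 IL1β mice with the 4 vehicle mice in any of them. Summed by library in place of mouse, both IL1β libraries stayed below both vehicle libraries in all 5 gates and both genotypes. The sums by library also take in cells that the hashtags did not assign to a single mouse. Split by symbol, in HSC-like cells of *Tet2*-KO mice the Mrpl genes went from 0.427 ± 0.0194% to 0.330 ± 0.00993% of UMIs and the Mrps genes from 0.230 ± 0.0138% to 0.160 ± 0.0107%. The shares of both sets were free of overlap in all 10 comparisons save that of the Mrpl genes in WT HSC-like cells, where the mice of both treatments overlapped.

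**Figure D1:**
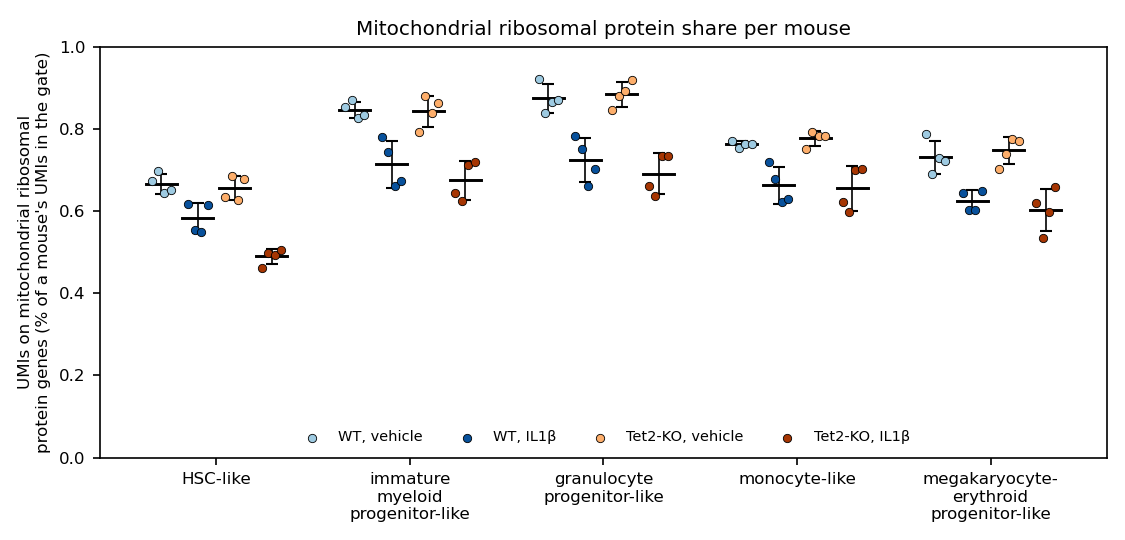
Each point is one mouse, with the share of its UMIs in a gate that fell on the 77 mitochondrial ribosomal protein genes (percent, axis from 0) for 5 marker-gated types and 4 groups. In each gate the 4 IL1β mice of a genotype sit below its 4 vehicle mice.

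The baseline level of the family followed cell type. In WT mice with vehicle it was highest in CFU-E-like cells, erythroid progenitors about to fill with hemoglobin, at 1.08 ± 0.0371% of UMIs (SD, n = 4), and lowest in neutrophil-like cells at 0.588 ± 0.0300%. Erythroblast-like cells (0.896 ± 0.0460%), granulocyte progenitor-like cells (0.875 ± 0.0348%) and immature myeloid progenitor-like cells (0.847 ± 0.0198%) came next, and each of these overlapped its neighbour in the order across mice. HSC-like cells lay near the bottom at 0.667 ± 0.0241%, and their mice overlapped those of the basophil-like gate just above. Of the 14 steps between neighbours of that order, those from CFU-E-like to erythroblast-like, from immature myeloid progenitor-like to megakaryocyte progenitor-like and from HSC-like to neutrophil-like cells showed no overlap between mice. With IL1β the mean share was lower in 15 of the 15 gates with at least 3 mice in each group, where it fell by 8.27% to 21.5% in WT and fell by 13.05% to 32.5% in *Tet2*-KO. IL1β and vehicle mice did not overlap in 11 gates in WT and 14 in *Tet2*-KO. The gates with overlap were the T and NK cell-like, basophil-like, plasma cell-like and plasmacytoid dendritic cell-like gates in WT and the plasma cell-like gate in *Tet2*-KO. The largest percent fall in WT was in dendritic cell-like cells (0.706 ± 0.0122% to 0.554 ± 0.0203%) and that in *Tet2*-KO in neutrophil-like cells (0.612 ± 0.0983% to 0.413 ± 0.0246%). By library, both IL1β libraries lay below both vehicle libraries in 14 of the 17 gates that could be compared by library in WT and in 15 in *Tet2*-KO.

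**Figure D2:**
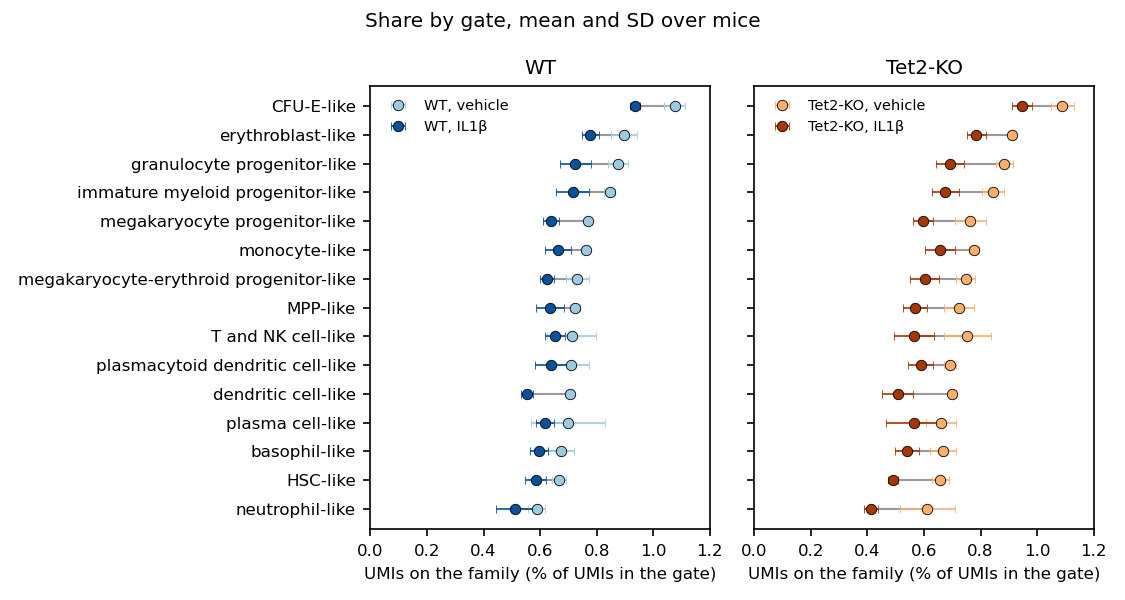
Mean and SD over mice of the family's share of UMIs (percent, axis from 0) in 15 marker-gated types, ordered by the WT vehicle mean, with WT on the left and *Tet2*-KO on the right. The IL1β mean is to the left of the vehicle mean in every gate.

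Gene by gene, a member is named called where its adjusted p was under 0.05 in the edgeR fit over all genes of the gate, and the share of all genes called in the same direction is given as background, from which nothing is read since these are the contrasts known when the family was put forward. In granulocyte progenitor-like cells of WT mice 57 of the 76 members tested were called lower with IL1β and 1 higher, where 15.8% of all genes were called lower and 12.7% higher. In *Tet2*-KO mice 64 were called lower and 1 higher, against 20.2% of all genes lower and 18.6% higher. The median log2 fold change of the members was -0.46 in WT and -0.58 in *Tet2*-KO, beside 0.034 and 0.026 for all genes tested. The 4 IL1β mice lay below the 4 vehicle mice for 55 members in WT and 65 in *Tet2*-KO, where 14.7% and 19.2% of all genes did so.

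Immature myeloid progenitor-like cells had 39 of 76 members called lower in WT (background 11.0%) and 54 in *Tet2*-KO (background 14.9%), with medians of -0.38 and -0.51 and none called higher (2 in WT when scaled by library totals). Monocyte-like cells had 33 of 76 called lower and 1 higher in WT (background 8.36% lower and 6.04% higher), and 39 lower and 1 higher in *Tet2*-KO (background 9.01% lower and 9.07% higher), with medians of -0.31 and -0.37. Without WT IL1β mouse 3 the WT monocyte-like calls went to 13, without WT vehicle mouse 1 to 20 and without WT vehicle mouse 3 to 22, where 4.13%, 4.69% and 5.76% of all genes were called lower. The same IL1β calls rested on 4 mice from 2 libraries in each group. With the library as the replicate, the calls were 25 in WT immature myeloid progenitor-like cells, 25 in WT granulocyte progenitor-like cells, and 2 in WT and 6 in *Tet2*-KO monocyte-like cells. With the library as the replicate the share of all genes called lower was also smaller, at 5.59%, 5.14%, 1.33% and 1.13% in these comparisons, so that 2 of 76 members in WT monocyte-like cells lay near it.

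Counted by overlap alone, members whose 4 IL1β mice all lay below the 4 vehicle mice numbered 8 in WT and 29 in *Tet2*-KO HSC-like cells (background 5.21% and 8.93% of all genes) and 39 in WT and 48 in *Tet2*-KO immature myeloid progenitor-like cells (background 11.0% and 13.6% of all genes). The counts were 33 and 39 in monocyte-like cells (background 9.65% and 10.3%) and 14 and 17 in megakaryocyte-erythroid progenitor-like cells (background 5.88% and 4.66%).

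HSC-like cells had few calls in WT, with 5 of 75 members lower (background 2.38%) and a median of -0.20. *Tet2*-KO HSC-like cells had 26 lower (background 6.92%), with a median of -0.50, and none were called higher in either genotype (1 in WT when scaled by library totals). The WT calls depended on single mice: none were left without WT IL1β mouse 3 or WT vehicle mouse 3, 1 without WT IL1β mouse 4 or WT vehicle mouse 4 and 3 without WT IL1β mouse 1 or WT vehicle mouse 1. Of all genes, 1.05% and 1.38% were called lower in the first pair of these fits, 2.03% and 1.45% in the second and 2.27% and 1.70% in the last. In *Tet2*-KO the calls fell to 14 without IL1β mouse 2 and to 17 without vehicle mouse 4, where 5.18% and 4.40% of all genes were called lower. Megakaryocyte-erythroid progenitor-like cells had 4 of 75 called lower in WT (background 3.16%) and 20 in *Tet2*-KO (background 4.11%), with medians of -0.42 and -0.44 and none called higher. There, leaving out one mouse took the WT calls to 1 (without IL1β mouse 3 or vehicle mouse 1), 2 (without IL1β mouse 4 or vehicle mouse 3) or 9 (without vehicle mouse 2). It took the *Tet2*-KO calls to 6 (without IL1β mouse 2 or vehicle mouse 4) or 8 (without vehicle mouse 3). The share of all genes called lower over the 8 omissions of that gate was 0.977% to 3.66% in WT and 0.706% to 4.99% in *Tet2*-KO, with 0.706% and 0.864% without vehicle mouse 4 and vehicle mouse 3 of *Tet2*-KO. With the library as the replicate the *Tet2*-KO calls in that gate were 6, where 0.323% of all genes were called lower. Depth differed between gates, since a mouse had 14 to 240 HSC-like cells and 10 to 247 megakaryocyte-erythroid progenitor-like cells but 169 to 1828 granulocyte progenitor-like cells. Depth differed between genotypes too. Over all gates, WT vehicle mouse 2 had 4224413 UMIs and WT IL1β mouse 4 had 8576127, while the lowest *Tet2*-KO mouse, vehicle mouse 2, had 12609176. Counts of calls are therefore not compared between gates, and those of the genotypes are given side by side without a comparison.

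**Figure D3:**
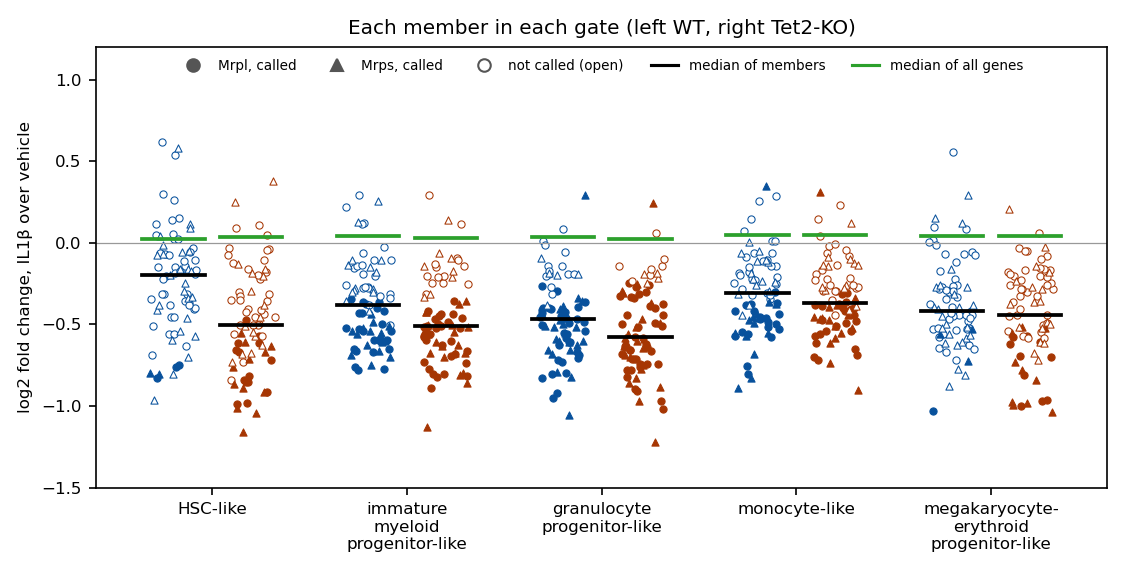
Log2 fold change of each tested member with IL1β (edgeR, vertical axis) in 5 gates, WT left and *Tet2*-KO right in each. Circles are genes with Mrpl symbols and triangles genes with Mrps symbols, filled where called. The black bar, the median of the members, lies between -0.58 and -0.20, below the green bar of all genes in every gate.

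Over the 10 IL1β comparisons (5 gates, 2 genotypes), 67 of the 77 members were called lower at least once, and 56 had a log2 fold change below 0 in every comparison in which they were tested. Of all 10887 genes tested in any of these gates, 24.6% were called lower at least once and 17.8% lay below 0 in every comparison. *Mrpl42* was the only member called lower in 10 of 10, and *Mrpl17*, *Mrps24* and *Mrps16* were called lower in 9. Another 10 members, among them *Mrps18a*, *Mrps18b*, *Mrpl12*, *Mrps34* and *Mrpl55*, were called lower in 8. Of the 10 members never called lower, *Mrpl53* had too few UMIs to be tested in any gate, and *Mrps9* and *Mrpl10* leaned the other way. Scaling by the library total in place of TMM factors shifted the median of all genes upward, to between 0.10 and 0.22 in place of 0.021 to 0.048. In WT granulocyte progenitor-like cells the member median minus the all-gene median was -0.50 with either scaling. A change of scaling shifts every gene of a mouse by about the same amount, so this equality is built in and checks nothing.

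Among the large subunit genes, *Mrpl12* encodes the stalk protein to which translation factors dock. In granulocyte progenitor-like cells its level was 264, 201, 219.5 and 215 CPM in the WT vehicle mice and 146, 129, 114 and 129.8 CPM in the WT IL1β mice, a log2 fold change of -0.80 ± 0.11 (SE). In *Tet2*-KO it was 195, 216, 247 and 288 CPM with vehicle and 108, 121, 122 and 130.2 CPM with IL1β (-0.97 ± 0.11). No IL1β mouse overlapped a vehicle mouse in either genotype. In HSC-like cells of *Tet2*-KO mice *Mrpl12* went from 156, 235, 172 and 175 CPM with vehicle to 89.0, 96.8, 91.6 and 91.5 CPM with IL1β (-0.92 ± 0.16), again without overlap, and the call remained when any one mouse was left out. In WT HSC-like cells the means were 152 ± 16.8 CPM and 109 ± 26.6 CPM (-0.40 ± 0.17), with no overlap, and the gene was not called.

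*Mrpl42*, a large subunit protein without a bacterial counterpart, was lower in all gates. Its level in granulocyte progenitor-like cells was 193, 152, 184 and 183 CPM in WT with vehicle and 110.0, 98.8, 79.5 and 80.7 CPM with IL1β (-0.95 ± 0.14). In *Tet2*-KO the values were 146, 163, 209.7 and 222 CPM and 72.4, 81.3, 106 and 104 CPM (-1.02 ± 0.14). The vehicle and IL1β mice were fully apart in both genotypes. In HSC-like cells it went from 149 ± 23.6 CPM to 74.0 ± 7.32 CPM in *Tet2*-KO (-0.99 ± 0.19, no overlap) and from 139 ± 10.4 CPM to 87.4 ± 36.0 CPM in WT (-0.75 ± 0.21, overlapping). *Mrpl17*, a homolog of a bacterial large subunit protein, fell from 122 ± 17.5 CPM to 63.8 ± 12.1 CPM in WT granulocyte progenitor-like cells (-0.92 ± 0.13) and from 130.2 ± 16.1 CPM to 69.4 ± 9.21 CPM in *Tet2*-KO (-0.90 ± 0.13), without overlap in either.

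Further large subunit genes moved the same way in the gates where they were among the steepest. *Mrpl27*, whose bacterial homolog lies near the peptidyl transferase center, went from 51.4 ± 2.82 CPM to 28.7 ± 6.95 CPM in WT granulocyte progenitor-like cells (-0.83 ± 0.16). *Mrpl39*, specific to mitochondria, went from 40.2 ± 5.19 CPM to 22.1 ± 4.60 CPM there (-0.80 ± 0.16), and *Mrpl55* from 76.7 ± 4.89 CPM to 40.4 ± 8.14 CPM in *Tet2*-KO (-0.91 ± 0.14). The mice of both treatments were apart for all 3 of these genes. In immature myeloid progenitor-like cells *Mrpl4*, whose bacterial homolog lines the exit tunnel, went from 90.5 ± 12.2 CPM to 49.9 ± 5.17 CPM in WT (-0.78 ± 0.12), and *Mrpl46* from 50.1 ± 6.83 CPM to 28.3 ± 4.05 CPM in *Tet2*-KO (-0.82 ± 0.16), neither with overlap. *Mrpl15*, part of the large subunit core, went from 116 ± 9.90 CPM to 71.7 ± 11.2 CPM in *Tet2*-KO monocyte-like cells (-0.69 ± 0.12), and *Mrpl40* from 78.7 ± 10.3 CPM to 37.3 ± 5.55 CPM in *Tet2*-KO megakaryocyte-erythroid progenitor-like cells (-0.999 ± 0.20). The calls given here for these 7 genes remained when any one mouse was left out. Other calls of the same genes did not. That of *Mrpl27* in *Tet2*-KO HSC-like cells (-0.98 ± 0.27) was lost without either of 2 mice. The same held for those of *Mrpl27* (-0.75 ± 0.19) and *Mrpl55* (-0.58 ± 0.15) in WT monocyte-like cells. That of *Mrpl55* in *Tet2*-KO megakaryocyte-erythroid progenitor-like cells (-0.97 ± 0.26) was lost without any of 4 mice.

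The 3 members with the most UMIs in HSC-like cells were not called in either genotype. *Mrpl52*, a mitochondria-specific protein of the large subunit, lay at 349 ± 38.1 CPM with vehicle and 354 ± 75.3 CPM with IL1β in WT (0.025 ± 0.17) and at 346 ± 67.4 CPM and 306 ± 48.8 CPM in *Tet2*-KO (-0.16 ± 0.16). *Mrpl33*, another large subunit protein, had log2 fold changes of 0.052 ± 0.16 in WT and -0.20 ± 0.15 in *Tet2*-KO, and *Mrpl23*, which sits by the exit tunnel, -0.45 ± 0.19 and -0.22 ± 0.18. Vehicle and IL1β mice overlapped for all 3 genes in both genotypes, and the WT direction of *Mrpl52* and *Mrpl33* turned negative with a looser marker rule, with another hashtag rule and with libraries as replicates.

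Mammals carry 3 homologs of a single bacterial small subunit protein, S18. *Mrps18b*, which is in the small subunit, had the largest fold of any member in granulocyte progenitor-like cells of both genotypes, at 76.4, 57.0, 66.6 and 57.0 CPM in WT with vehicle and 35.7, 34.1, 22.1 and 33.9 CPM with IL1β (-1.05 ± 0.14). In *Tet2*-KO it was 56.0, 68.8, 82.3 and 77.3 CPM with vehicle and 29.0, 30.2, 32.0 and 30.1 CPM with IL1β (-1.22 ± 0.13). The lowest vehicle mouse was above the highest IL1β mouse in both genotypes. *Mrps18a*, which sits in the large subunit despite its name, was at 89.5, 75.6, 69.0 and 76.1 CPM and 53.3, 49.0, 38.9 and 33.9 CPM in WT (-0.79 ± 0.13) and at 74.4, 84.4, 88.4 and 88.4 CPM and 38.3, 36.5, 45.6 and 49.4 CPM in *Tet2*-KO (-0.97 ± 0.12). *Mrps18c*, the small subunit member nearest to S18 in position, was at 178, 191, 172 and 180.2 CPM and 166, 149.8, 118 and 112 CPM in WT (-0.38 ± 0.11) and at 174, 178, 189.6 and 172 CPM and 148, 130.0, 158 and 165 CPM in *Tet2*-KO (-0.24 ± 0.10). For both genes too the treatments were free of overlap, and the differences among the 3 folds were not tested. The WT call of *Mrps18c* was lost without WT IL1β mouse 3, where the log2 fold change was -0.32.

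In HSC-like cells of *Tet2*-KO mice *Mrps18b* went from 44.4, 56.7, 39.6 and 86.2 CPM to 22.2, 29.1, 22.3 and 20.5 CPM (-1.16 ± 0.33), *Mrps18a* from 55.0 ± 20.8 CPM to 32.0 ± 8.89 CPM (-0.89 ± 0.24) and *Mrps18c* from 118 ± 15.5 CPM to 74.1 ± 18.2 CPM (-0.57 ± 0.21). *Mrps18b* and *Mrps18a* were called and *Mrps18c* was not, and vehicle and IL1β mice overlapped for *Mrps18a* only. *Mrps18b* was no longer called without vehicle mouse 4 (log2 fold change -0.86) or IL1β mouse 4 (-1.07), and *Mrps18a* without IL1β mouse 2 (-0.78). In WT HSC-like cells none of the 3 was called, with log2 fold changes of -0.96 ± 0.39 for *Mrps18b*, -0.38 ± 0.24 for *Mrps18a* and 0.11 ± 0.22 for *Mrps18c*, and the last turned negative with a looser marker rule, another hashtag rule or without WT IL1β mouse 1. The order of the 3 was not the same in every gate. In WT megakaryocyte-erythroid progenitor-like cells *Mrps18c* (-0.53 ± 0.15) lay beside *Mrps18b* (-0.52 ± 0.26), and of the 3 only *Mrps18c* was called, a call lost without any one of 6 of the 8 WT mice. *Mrps18a* (-0.77 ± 0.33) had 0 of 118549 UMIs in WT IL1β mouse 4 there, which allows up to 25.3 CPM, and without WT IL1β mouse 1 its log2 fold change was -1.66 and it was called.

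Other small subunit genes were called lower in some gates and not in others. *Mrps24*, the homolog of bacterial S3 at the messenger RNA entry, was at 189, 194, 178 and 169.8 CPM with vehicle and 55.6, 79.1, 91.6 and 112 CPM with IL1β in *Tet2*-KO HSC-like cells (-1.04 ± 0.18). *Mrps16*, a homolog of bacterial S16, went from 134 ± 28.2 CPM to 68.5 ± 17.4 CPM in the same cells (-1.01 ± 0.21). Neither gene's IL1β mice overlapped its vehicle mice, and both stayed called when any one mouse was left out. The 5 members called in WT HSC-like cells were *Mrpl11*, which forms the base of the stalk (-0.83 ± 0.23), *Mrps16* (-0.80 ± 0.23), *Mrps24* (-0.80 ± 0.20), *Mrpl17* (-0.76 ± 0.22) and *Mrpl42* (-0.75 ± 0.21). Each of these 5 calls was lost without at least 2 of the 8 WT mice in turn, with the log2 fold changes between -1.10 and -0.52 throughout. *Mrps34*, a mitochondria-specific small subunit protein, went from 112 ± 19.8 CPM to 62.4 ± 16.9 CPM in WT granulocyte progenitor-like cells (-0.82 ± 0.16), without overlap. *Mrps22*, also specific to mitochondria, went from 42.4 ± 3.95 CPM to 23.9 ± 4.46 CPM in *Tet2*-KO immature myeloid progenitor-like cells (-0.81 ± 0.16), and *Mrps11*, in the platform of the small subunit, from 52.9 ± 9.84 CPM to 29.2 ± 7.86 CPM in WT (-0.69 ± 0.18), neither with overlap.

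*Mrps12*, the decoding center protein, went from 166 ± 3.61 CPM to 116 ± 12.2 CPM in *Tet2*-KO granulocyte progenitor-like cells (-0.52 ± 0.10) and from 157 ± 15.1 CPM to 123 ± 17.1 CPM in WT (-0.36 ± 0.10), without overlap in either. In *Tet2*-KO megakaryocyte-erythroid progenitor-like cells *Mrps12* had a log2 fold change of -0.73 ± 0.18, with overlapping mice. The WT call of *Mrps12* in granulocyte progenitor-like cells was lost without WT IL1β mouse 3 (log2 fold change -0.27) or WT vehicle mouse 1 (-0.30). *Mrps36*, which is now placed in the 2-oxoglutarate dehydrogenase complex rather than the ribosome, went from 131 ± 8.56 CPM to 85.6 ± 12.7 CPM in WT (-0.59 ± 0.11) and from 131 ± 14.1 CPM to 88.4 ± 12.2 CPM in *Tet2*-KO (-0.56 ± 0.11), without overlap. In megakaryocyte-erythroid progenitor-like cells *Mrps26* went from 101 ± 35.2 CPM to 56.3 ± 3.95 CPM in *Tet2*-KO (-0.99 ± 0.20, overlapping), and *Mrps14* (-0.56 ± 0.16) and *Mrps15* (-0.73 ± 0.21) were among the 4 members called in WT. The calls of *Mrps14* and *Mrps15* were each lost without WT IL1β mouse 3 or WT vehicle mouse 1, among others, where the log2 fold changes lay between -0.60 and -0.47.

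*Mrps9*, a small subunit protein whose bacterial homolog contacts transfer RNA, was the one member called higher with TMM scaling. In granulocyte progenitor-like cells it was at 50.3, 46.5, 50.5 and 52.8 CPM in WT with vehicle and 64.9, 59.9, 58.0 and 66.1 CPM with IL1β (0.29 ± 0.080). In *Tet2*-KO it was at 48.9, 50.1, 50.2 and 53.0 CPM with vehicle and 60.8, 59.9, 55.7 and 62.5 CPM with IL1β (0.24 ± 0.075). Every IL1β mouse was above every vehicle mouse in both genotypes, and the calls remained when any one mouse was left out. Neither call remained with libraries as replicates (log2 fold change 0.23 in WT and 0.25 in *Tet2*-KO), and the WT call was also lost with another hashtag rule (0.24). It was also called higher in monocyte-like cells (0.35 ± 0.11 in WT and 0.31 ± 0.10 in *Tet2*-KO), where each call was lost without any of 6 of the 8 mice of the contrast, with log2 fold changes of 0.22 to 0.37 over all omissions. The monocyte-like calls were also lost in both genotypes with DESeq2, without a filter on low counts, with the replicate block, with libraries as replicates and with another hashtag rule, with log2 fold changes of 0.25 to 0.38. Its log2 fold change was above 0 in 10 of 10 comparisons, from 0.14 to 0.58. *Mrpl10*, which anchors the stalk, was singled out after its values were seen, and it lay above 0 in 8 of 10 comparisons, between -0.19 and 0.29, with no call. Scaling by library totals kept the direction of *Mrps9* in its 4 called comparisons, with log2 fold changes of 0.38 to 0.48. It also added calls higher in WT, for *Mrps9* in HSC-like (0.66) and immature myeloid progenitor-like cells (0.40) and for *Mrpl45*, named here because of these values, in immature myeloid progenitor-like (0.44) and monocyte-like cells (0.36).

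**Figure D4:**
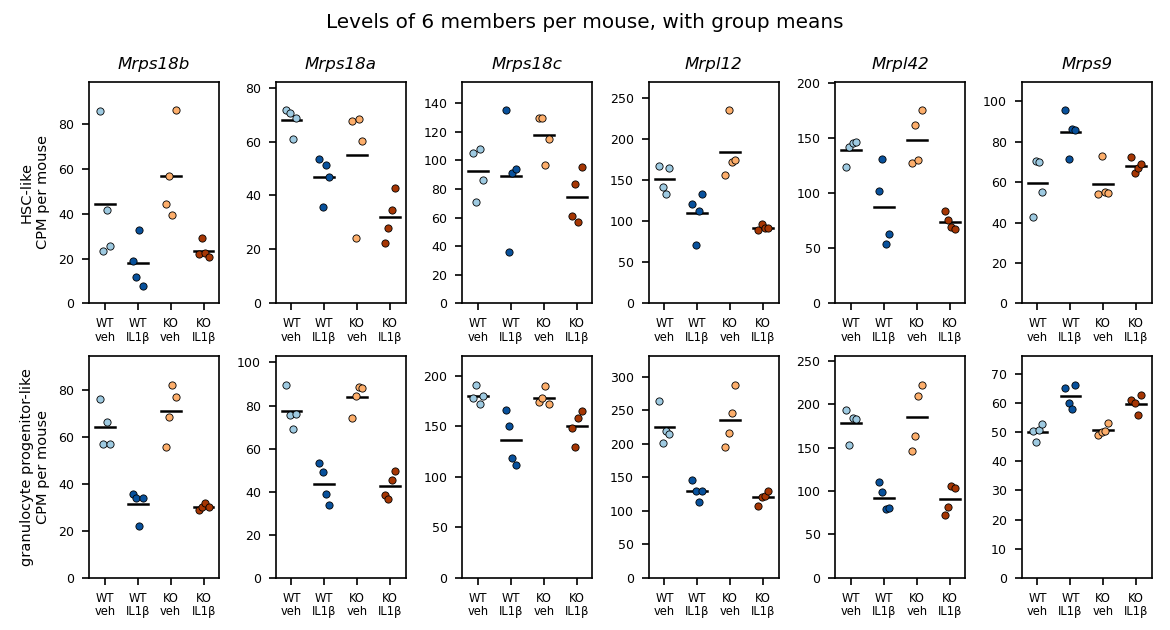
CPM per mouse (points, axes from 0) and group means (bars) of 6 members in HSC-like cells (top) and granulocyte progenitor-like cells (bottom), by genotype and treatment. In the lower panels the first 5 genes are lower with IL1β without overlap of the mice, and *Mrps9* is higher.

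The genotypes, which differ in both *Tet2* and Cre, were compared without IL1β in the vehicle mice, a contrast on which the family had not been chosen. No member was called in any of the 5 gates in edgeR's quasi-likelihood test, where 0.201% of all genes were called in either direction in HSC-like, 0.0950% in immature myeloid progenitor-like, 0.0761% in granulocyte progenitor-like, 0.0196% in monocyte-like and 0.00% in megakaryocyte-erythroid progenitor-like cells. At an unadjusted p under 0.05 there were 0 to 2 of 75 or 76 members per gate, where 4.03% to 5.90% of all genes were under it, and DESeq2 also called 0. The median log2 fold change of the members, *Tet2*-KO over WT, was 0.011 to 0.075 over the gates. By sign, 16 of 76 members lay below 0 in monocyte-like cells (50.3% of all genes) and 21 of 76 in granulocyte progenitor-like cells (46.2%). The others were 26 of 76 in immature myeloid progenitor-like (46.6%), 32 of 75 in HSC-like (47.8%) and 35 of 75 in megakaryocyte-erythroid progenitor-like cells (53.7%). The smallest adjusted p of a member was for *Mrpl50*, log2 fold change 0.28 ± 0.12 and adjusted p = 0.786 in granulocyte progenitor-like cells (edgeR). The HSC-like share of UMIs was 0.667 ± 0.0241% in WT and 0.657 ± 0.0300% in *Tet2*-KO, with overlapping mice.

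Among mice given IL1β, again 0 members were called between *Tet2*-KO and WT by edgeR or DESeq2, where the background in the same order of gates was 0.0144%, 0.106%, 0.343%, 0.00980% and 0.00% of all genes. The number at an unadjusted p under 0.05 was 1 to 12 per gate, the most in HSC-like cells, where 9.81% of all genes were under it (4.11% to 9.81% over the gates). There, 65 of 75 members lay below 0, beside 48.5% of all genes, with a median of -0.24. In monocyte-like cells 22 of 76 members lay below 0 (48.2% of all genes), and in granulocyte progenitor-like cells 43 of 76 (50.2%). The counts were 50 of 76 in immature myeloid progenitor-like (49.5%) and 50 of 75 in megakaryocyte-erythroid progenitor-like cells (53.0%). The smallest adjusted p in HSC-like cells was for *Mrpl21*, log2 fold change -0.66 ± 0.21 and adjusted p = 0.253 (edgeR). In immature myeloid progenitor-like cells it was for *Mrpl28*, log2 fold change -0.37 ± 0.10 and adjusted p = 0.175 (edgeR), and in the other 4 gates the members' medians were -0.064 to 0.035. The share of UMIs in HSC-like cells was 0.617%, 0.554%, 0.551% and 0.615% in the WT IL1β mice and 0.463%, 0.498%, 0.493% and 0.507% in the *Tet2*-KO IL1β mice, without overlap.

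The difference between the genotypes' IL1β effects was fitted as an interaction. It is built from the same IL1β comparisons on which the family was selected. Its p-values and sign counts are therefore a description and carry no test of the family. By edgeR the interaction called 0 members and 0.00% of all genes in each gate. At an unadjusted p under 0.05 there were 0 to 6 members per gate, where 2.71% to 5.11% of all genes were under it, and DESeq2 called 0 members. The members' median interaction was -0.25 to -0.032, the most negative in HSC-like cells, where the smallest adjusted p was for *Mrpl3*, log2 fold change -1.13 ± 0.36 and adjusted p = 0.948 (edgeR). By sign, 58 of 75 members lay below 0 in HSC-like (49.6% of all genes), 55 of 76 in immature myeloid progenitor-like (51.5%) and 56 of 76 in granulocyte progenitor-like cells (51.7%). The others were 48 of 76 in monocyte-like (47.8%) and 47 of 75 in megakaryocyte-erythroid progenitor-like cells (49.9%). With no member called, the larger percent fall and the higher number of calls in *Tet2*-KO HSC-like cells are not shown to differ from WT for any single member.

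Other genes of mitochondrial translation were counted over the same 10 IL1β comparisons, in which 2.38% to 20.2% of all genes were called lower and 1.53% to 18.6% higher. Mitoribosome proteins with other symbols (*Dap3*, *Ptcd3*, *Chchd1*, *Aurkaip1* and *Gadd45gip1*) had 0 to 3 called lower and none higher of 5 tested, with medians from -0.55 to -0.35. Mitochondrial translation factors, which start, extend and end the chains, had 0 to 5 called lower and none higher of 10 to 14 tested, with medians from -0.15 to 0.10. Mitochondrial aminoacyl-tRNA synthetases, which charge the transfer RNAs, had 0 to 2 called lower and 0 to 1 higher of 5 to 17 tested, with medians from -0.32 to 0.16. Mitoribosome assembly genes had 0 to 6 called lower and 0 to 2 higher of 7 to 18 tested, with medians from -0.29 to 0.14. In granulocyte progenitor-like cells of *Tet2*-KO mice this came to 64 of 76 members lower beside 5 of 14 factors, 2 of 17 synthetases and 6 of 18 assembly genes, against 20.2% of all genes.

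Cytosolic ribosomal protein genes, whose products make up the ribosome of the cytosol, had 34 to 68 called lower and 0 to 4 higher of 83 tested, with medians from -0.45 to -0.21, beside the same background of 2.38% to 20.2% lower and 1.53% to 18.6% higher. Nuclear genes of the respiratory chain had 3 to 42 called lower and 0 to 2 higher of 72 to 74 tested, with medians from -0.35 to -0.19. The 13 protein genes of mitochondrial DNA, the messages that mitoribosomes translate, lay on the other side, with none called lower and 2 to 7 higher of 13 tested, with medians from 0.039 to 0.27. Myc and genes of the nucleolus, where cytosolic ribosomes are assembled, had 0 to 7 called lower and none higher of 10 tested, with medians from -0.72 to -0.094. In HSC-like cells of *Tet2*-KO mice the members' median of -0.50 stood beside -0.33 for cytosolic ribosomal proteins, -0.35 for the respiratory chain and 0.039 for mitochondrial DNA, while in WT the order differed, with -0.20 for the members and -0.40 for cytosolic ribosomal proteins.

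**Figure D5:**
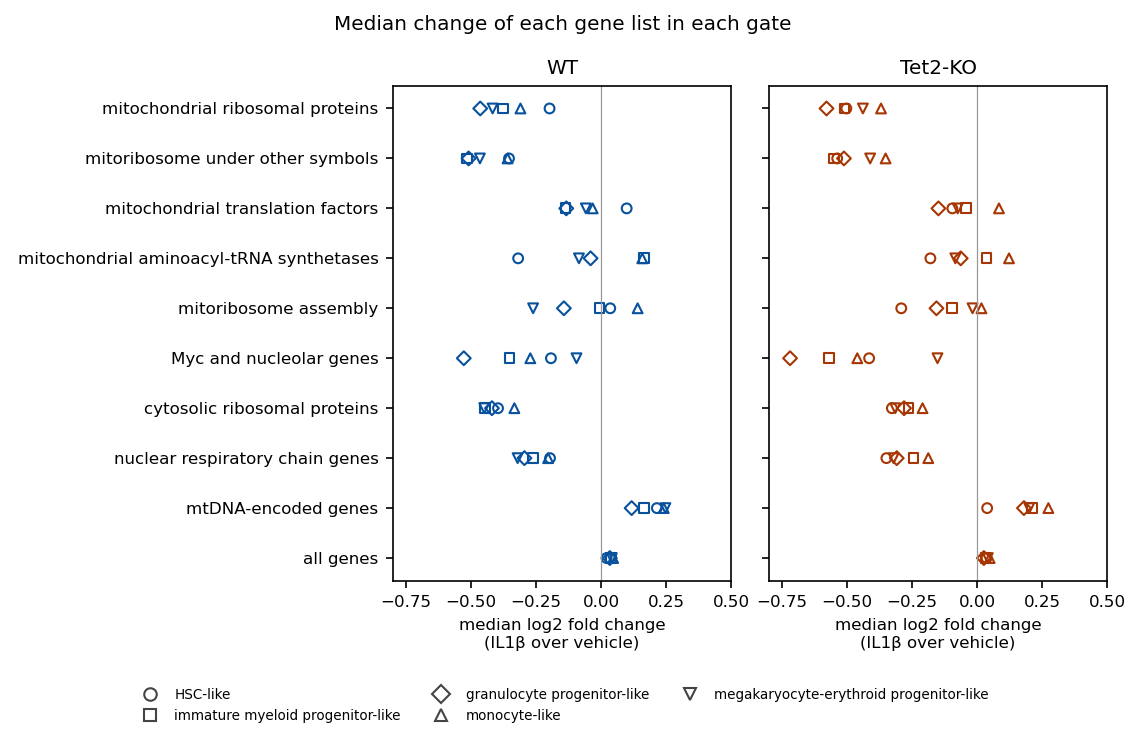
Median log2 fold change with IL1β (horizontal axis) of 10 gene lists, WT left and *Tet2*-KO right, with one symbol per gate. Mitochondrial ribosomal proteins, under either kind of symbol, sit left of 0 in every gate, mtDNA-encoded genes right of 0, and all genes near 0.

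Several measures moved together with the family's share, and their part in it was not tested. The share of UMIs from mitochondrial DNA, also a measure of RNA quality, rose with IL1β from 4.07 ± 0.496 to 5.38 ± 0.336% in WT and from 3.84 ± 0.492 to 5.20 ± 0.512% in *Tet2*-KO granulocyte progenitor-like cells, and did so without overlap in 9 of the 10 comparisons. Cytosolic ribosomal protein genes went from 30.5 ± 1.42 to 26.6 ± 0.817% of UMIs in *Tet2*-KO HSC-like cells. With both of these left out of the total, a denominator chosen after seeing the data, the family's share was lower with IL1β in all 10 comparisons. In HSC-like cells the log2 ratio was -0.28 in WT and -0.49 in *Tet2*-KO, in place of -0.19 and -0.42. The genes left out changed with IL1β themselves, so leaving them out alters the total by treatment, and no cause is read from these ratios. G2M genes, which mark cells about to divide, rose in HSC-like cells from 0.724 ± 0.143 to 1.02 ± 0.0602% in WT and from 0.497 ± 0.134 to 0.736 ± 0.0527% in *Tet2*-KO. The median UMIs per cell overlapped between treatments in every comparison, for example 2760.1 ± 758 to 3691 ± 1042 in *Tet2*-KO HSC-like cells. In granulocyte progenitor-like cells the gate's own 8 markers fell with IL1β, from 2.36% to 1.79% of UMIs in WT and from 2.62% to 2.16% in *Tet2*-KO, without overlap. Among the 16 marker lists of other cell types, HSC-like cells had 5 higher and 1 lower without overlap in WT and 3 and 0 in *Tet2*-KO, and 8 of their 118 markers were at 0. Those higher in both genotypes were the immature myeloid progenitor list (means of 0.233% to 0.366% of UMIs in WT and 0.244% to 0.350% in *Tet2*-KO) and the megakaryocyte-erythroid progenitor list (0.0826% to 0.119% and 0.0889% to 0.126%). In WT the granulocyte progenitor (0.0990% to 0.207%), monocyte (0.0206% to 0.0394%) and megakaryocyte progenitor lists (0.0343% to 0.0438%) were also higher and the common lymphoid progenitor list lower (0.0109% to 0.00132%). In *Tet2*-KO the MPP list was higher (0.0967% to 0.117%). In granulocyte progenitor-like cells these counts were 4 and 0 in WT and 2 and 2 in *Tet2*-KO, and in immature myeloid progenitor-like cells 3 and 1 in WT and 1 and 2 in *Tet2*-KO. They were 2 and 1 in WT and 0 and 0 in *Tet2*-KO in monocyte-like cells, and 5 and 0 in WT and 3 and 0 in *Tet2*-KO in megakaryocyte-erythroid progenitor-like cells, where 12 of 121 markers were at 0.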

How the data were processed

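Lineage-negative bone marrow of 16 mice was profiled with 10x Genomics 3′ chemistry in 8 libraries of 2 hashtagged mice each. Per the labels, the submitters aligned and counted with Cell Ranger 3.1.0 on mm10 and worked in Seurat 3.2.3. The authors deposited raw UMI count matrices of genes and of hashtag antibodies per library, with barcode and feature lists. The 2 mice of a library, of 1 genotype and treatment, were mixed before capture and separated here by hashtag. All sample columns could be mapped to a group through the labels and the hashtag names.

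Of 121405 barcodes, 94917 were kept, namely those in which 750 or more genes were detected and mtDNA-encoded genes took no more than 10% of UMIs. Hashtags were called with HTODemux (Seurat 5.3.0), which gave 57896 single-mouse cells, 3938 doublets (4.15%) and 14.3% to 49.8% negative cells per library. Doublets and negative cells were left out of the main values by mouse. Values and fits by library used every kept cell of a gate, with doublets and negative cells included. A cell entered the gate with the highest marker score if it held at least 3 markers of that gate, which placed 54011 cells (93.3%). The markers Iglc1, Iglc2 and Ighm and the list genes Mrm2 and Mrm3 were not analysed here.

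UMIs were summed per mouse and gate, with at least 10 cells. All groups were fitted together in edgeR 4.0.16 (R 4.3.3, limma 3.58.1) with filterByExpr, TMM factors, glmQLFit, glmQLFTest and Benjamini-Hochberg adjustment over all genes tested in the gate. CPM values of members use TMM-scaled library sizes, and shares are percentages of all UMIs of a mouse in a gate. The SE of a log2 fold change was taken from the F statistic of its test, as the absolute log2 fold change over the square root of F. The mouse was the replicate, but 2 mice share each library, so p-values may be too small, and depth enters through 10 or more cells per mouse and gate. Counting limits cover counting error only. Promoter windows were read from RefSeq for GRCm38.p6.

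The family, and with it its members, and the gene lists were chosen with earlier results of these data known, while which genes belong to the family was set by symbol alone. Members were named by a rule: in each tested gate and IL1β contrast, up to 6 called members per direction with the largest fold change, or the 2 with the smallest p where none was called, and always *Mrpl12*, *Mrps12*, *Mrps18a*, *Mrps18b*, *Mrps18c*, *Mrps36* and, in HSC-like cells, the 3 with the most UMIs. This named 28 of the 77. Alternatives were DESeq2 1.42.0, no TMM factors, no filter on low counts, the replicate number as a block, libraries as replicates, at least 2 markers, a hashtag ratio of 3, mean log2(CPM + 1) as the score, leaving out each mouse, and, chosen after seeing the data, a total without cytosolic ribosomal and mtDNA-encoded genes. Protein sequences were not used here.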

Additional observations from a re-analysis of the deposited data

Results flagged for a closer look

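In 9 of 280 groups of 4 mice tested for a single mouse far from the others, by a rule that chance meets in about 1 in 20 groups, 1 mouse stood apart by Dixon's ratio. The count is below that rate. The family's share of UMIs was 0.600% in the lowest WT IL1β mouse in T and NK cell-like cells, where the others lay between 0.668% and 0.676%. It was 0.642% in the highest WT IL1β mouse in basophil-like cells, where the next were at 0.586% and below. *Mrpl23* lay at 146 CPM in the lowest *Tet2*-KO vehicle mouse in HSC-like cells and at 209 to 216 CPM in the others. *Mrps18b* lay at 22.1 CPM in the lowest WT IL1β mouse in granulocyte progenitor-like cells, beside 33.9 to 35.7 CPM. In immature myeloid progenitor-like cells *Mrps34* reached 134 CPM in the highest *Tet2*-KO vehicle mouse, with the next at 106 CPM, and *Mrps36* reached 101 CPM in the highest WT IL1β mouse, with the next at 77.5 CPM. In megakaryocyte-erythroid progenitor-like cells *Mrpl12* reached 218 CPM in the highest WT IL1β mouse, with the next at 155 CPM, and *Mrps12* lay at 63.8 CPM in the lowest WT vehicle mouse, beside 159 to 169 CPM. *Mrps18b* had 0 of 109889 UMIs in 1 *Tet2*-KO IL1β mouse there, which allows up to 27.3 CPM for counting error only, and lay at 27.5 to 31.4 CPM in the other mice.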

How the results depend on the processing

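The family's share of UMIs fell in all 10 IL1β comparisons under every setting tried. With a total that leaves out cytosolic ribosomal and mtDNA-encoded genes, chosen after seeing the data, the log2 ratio was -0.28 in WT and -0.49 in *Tet2*-KO HSC-like cells and -0.32 in WT megakaryocyte-erythroid progenitor-like cells. Leaving out 1 mouse, done with the total of all UMIs only, kept every ratio between -0.44 and -0.16. Counts of called members moved more, and the cause was not tested. With DESeq2 they were 1 in WT and 12 in *Tet2*-KO HSC-like cells (background of all genes called lower 1.68% and 4.24%) and 2 and 9 in megakaryocyte-erythroid progenitor-like cells (2.90% and 2.55%), so that the WT counts, of 75 members, lay near or below the background. Without TMM factors they were 3 in WT HSC-like cells (2 of them lower, background 1.91%) and 1 in WT and 13 in *Tet2*-KO megakaryocyte-erythroid progenitor-like cells (1.75% and 2.79%), and the member medians were -0.12 (WT) and -0.43 (*Tet2*-KO) in HSC-like, -0.23 and -0.39 in immature myeloid progenitor-like, -0.28 and -0.43 in granulocyte progenitor-like, -0.20 in WT monocyte-like and -0.30 in WT megakaryocyte-erythroid progenitor-like cells. That scaling also turned the split of all genes called in WT granulocyte progenitor-like cells from 1332 higher and 1658 lower to 3080 and 937, and in *Tet2*-KO from 1954 and 2123 to 3218 and 1411. Without a filter on low counts the HSC-like counts were 3 in WT and 17 in *Tet2*-KO (background 1.23% and 2.87%), and with another hashtag rule 3 in WT (2.41%), where the *Tet2*-KO median was -0.58. With libraries as replicates the counts were 25 in WT immature myeloid progenitor-like and WT granulocyte progenitor-like cells (background 5.59% and 5.14%), 2 in WT and 6 in *Tet2*-KO monocyte-like cells (1.33% and 1.13%) and 6 in *Tet2*-KO megakaryocyte-erythroid progenitor-like cells (0.323%).

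Leaving out 1 mouse at a time gave 0 to 5 called members in WT and 14 to 30 in *Tet2*-KO HSC-like cells, 27 to 45 and 48 to 57 in immature myeloid progenitor-like, 48 to 62 and 60 to 66 in granulocyte progenitor-like, 13 to 41 and 27 to 43 in monocyte-like, and 1 to 9 and 6 to 24 in megakaryocyte-erythroid progenitor-like cells. In the same order, the share of all genes called lower was 1.05% to 2.52% and 4.40% to 7.15%, 6.91% to 11.2% and 11.1% to 15.2%, 11.0% to 16.6% and 16.6% to 19.5%, 4.13% to 8.87% and 5.36% to 10.8%, and 0.977% to 3.66% and 0.706% to 4.99%. The counts of members, unlike these shares, are of calls in either direction. They include *Mrps9*, called higher, in every omission in granulocyte progenitor-like cells and in some omissions in monocyte-like cells. The medians then ranged from -0.29 to -0.13 and -0.54 to -0.48 in HSC-like, -0.46 to -0.34 and -0.56 to -0.46 in immature myeloid progenitor-like, -0.56 to -0.39 and -0.62 to -0.51 in granulocyte progenitor-like, -0.40 to -0.27 and -0.43 to -0.32 in monocyte-like, and -0.46 to -0.31 and -0.52 to -0.30 in megakaryocyte-erythroid progenitor-like cells. Of the 85 calls of named members, 56 held whichever mouse was left out. Leaving out a mouse keeps both libraries of its group, so it does not show whether a call holds by library. With libraries as replicates 27 of the 85 calls were lost, and with DESeq2 16. Without TMM factors 12 were lost, with another hashtag rule 11 and without a filter on low counts 6. The replicate block lost 5 and the rule of at least 2 markers lost 1. The genotype and interaction comparisons had 0 calls under every setting. With the replicate number as a block the counts were 4 in WT and 20 in *Tet2*-KO HSC-like, 36 and 54 in immature myeloid progenitor-like, 58 and 65 in granulocyte progenitor-like, 25 and 37 in monocyte-like, and 4 and 14 in megakaryocyte-erythroid progenitor-like cells, beside 2.14% and 6.15%, 9.77% and 14.6%, 14.1% and 19.3%, 6.77% and 8.56%, and 2.49% and 2.96% of all genes called lower. The 58 and the 65 each include *Mrps9*, which was called higher, while the shares are of genes called lower. The numbers do not pair the mice, since the deviations of same-numbered mice correlated with r from -0.22 to 0.16. Mice of the same library correlated with r from -0.78 to 0.71, with means of -0.19 to 0.053 over the gates. Deviations were taken from the mean of each group's 4 mice, which by itself pushes r between mice of a group below 0. These values are thus not comparable with those of same-numbered mice and do not show that library effects are absent.

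Among the 28 named members, the only ones whose directions were followed across settings, those that turned were not called and were in WT HSC-like cells. *Mrps18c* went to -0.071 with at least 2 markers and -0.19 with another hashtag rule, and ranged from -0.24 to 0.21 without 1 mouse. *Mrps36* went to 0.0026 without TMM factors and ranged from -0.30 to 0.051 without 1 mouse. *Mrpl52* went to -0.035 with libraries as replicates, -0.10 with at least 2 markers and -0.12 with the hashtag rule (-0.10 to 0.13 without 1 mouse), and *Mrpl33* to -0.010, -0.066 and -0.099 (-0.048 to 0.16 without 1 mouse). Depth limits the HSC-like and megakaryocyte-erythroid progenitor-like gates most, where single mice held 14 and 10 cells.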
